A study of Mus musculus with 6 samples.

Results

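The genes that copy the genome were examined in RVP3 cells, a mouse tumour cell line, after combined treatment with DAC and TSA. A list of 51 genes of DNA replication and S phase was drawn up by role, with earlier results of these data known. Its members were found on the arrays by the gene symbol of each probe. Of these 51 genes, 44 were measured, through 69 probes, among 8734 genes measured in all. The other 7 genes, Orc2, Gmnn, Pola1, Pole2, Prim1, E2f7 and Slbp, were not analysed here.

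RNA of whole cultures was hybridised to Illumina Mouse WG-6 bead arrays, on which each probe reads 1 transcript sequence. The 3 DAC/TSA arrays came from cells given 24 h in fresh medium, then 3 µM DAC for 48 h, then 30 ng/ml TSA for 24 h, while the 3 control arrays came from cells with no treatment. All 6 cultures were of the same line, of C57BL/6 background, which in the study served as the line without a response to IFNγ, and the series calls the 3 samples of a group biological replicates. DAC (5-aza-2′-deoxycytidine) is built into DNA as it is copied and traps DNA methyltransferases there, and TSA (trichostatin A) inhibits histone deacetylases. Both agents were given to the same cells and no single-agent array was analysed, so their parts cannot be told apart. In RNA from whole cultures, fewer cells in S phase and less RNA per cell also cannot be told apart.

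Replication starts at origins, where the origin recognition complex (ORC), Cdc6 and Cdt1 load the ring-shaped MCM2-7 helicase onto DNA before S phase, a step called licensing. At the onset of S phase Cdc45 and the GINS complex join the ring and switch it on, primase and the polymerases begin copying, and a sliding clamp, PCNA, is placed by the clamp loader RFC to hold the polymerases on the template. Many of these genes are transcribed in a wave before S phase under the E2F transcription factors, whose sites lie close to the start of the genes, often beside CCAAT boxes read by the factor NF-Y.

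The windows from 250 bases before to 50 bases after the start of each gene were read from RefSeq on the build GRCm38.p6, which held 41 of the 51 members. An E2F motif, searched on both strands in the 4 spellings TTTGGCGC, TTTCCCGC, TTTCGCGC and TTTGCCGC, which can overlap one another on opposite strands, was present in 15 of the 41 members (36.6%), against 704 of 27025 genes in the table (2.6%). CCAAT, searched on both strands, was present in 27 of the 41 members (65.9%), against 41.1% of the genes in the table. By this search the list held the E2F motif more often than genes at large, as a description of letters and not of binding. Among members in the table, the E2F motif was found for 3 of 6 that fell after treatment, 0 of 2 that rose and 9 of 27 that did not pass the test, while CCAAT was found for 5 of 6, 1 of 2 and 16 of 27 of these. With 8 changed members in the table, no difference between these shares was tested.

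Stretches upstream of 4 genes are shown with the matches to either motif in capitals, 5′ to 3′ on the strand of the gene. Cdc6 and Orc1, which load the helicase, fell after treatment and had an E2F match there. Mcm6 had 3 E2F matches, the first pair overlapping on opposite strands, and did not pass the test. Tk1 had the highest rise of all members and no match in the stretch shown, and it and Mcm6 were chosen after their values were seen.
Cdc6, chr11:98907993-98908150, plus strand: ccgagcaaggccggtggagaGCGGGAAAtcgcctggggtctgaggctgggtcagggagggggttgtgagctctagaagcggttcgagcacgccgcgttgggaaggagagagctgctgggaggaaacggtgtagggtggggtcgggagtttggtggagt
Orc1, chr4:108579304-108579453, plus strand: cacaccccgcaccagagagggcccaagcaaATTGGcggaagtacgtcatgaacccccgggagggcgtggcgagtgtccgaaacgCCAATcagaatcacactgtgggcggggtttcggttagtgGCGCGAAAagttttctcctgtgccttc
Mcm6, chr1:128359706-128359855, minus strand: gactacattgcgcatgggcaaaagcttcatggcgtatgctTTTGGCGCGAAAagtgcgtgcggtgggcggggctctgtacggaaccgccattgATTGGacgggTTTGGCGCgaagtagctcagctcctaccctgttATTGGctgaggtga
Tk1, chr11:117826015-117826164, minus strand: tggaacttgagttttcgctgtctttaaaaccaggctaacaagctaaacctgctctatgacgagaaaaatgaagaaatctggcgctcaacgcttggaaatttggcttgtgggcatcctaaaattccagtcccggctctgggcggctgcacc

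Replication genes both fell and rose after treatment. Of the 44 measured members, 9 fell (20.5%) against 25.8 percent of all genes, and 6 rose (13.6%) against 27.0 percent of all genes, by limma at an adjusted p below 0.01. Together 15 members changed (34.1%), against 52.8 percent of all genes, a difference in share that was not tested. E2f2, Rpa2, Mcm10, Cdc6, E2f4, Orc1, Gins1, Mcm4 and Mcm2 fell, and Tk1, Rfc2, Gins2, Rpa1, Prim2 and Tipin rose. Changes of at least 2-fold were few, with 1 lower member (E2f2), against 3.82 percent of all genes, and 2 higher members (Tk1 and Rfc2), against 7.06 percent of all genes. The median log2 change was -0.06 over the members and -0.02 over all genes, with members between -1.07 and 1.17. For 25 of the 44 members (56.8%) the DAC/TSA arrays did not overlap the control arrays, against 69.2 percent of all genes, and 21 members (47.7%) had a log2 change of at most 0.25 in size, against 34.8 percent of all genes. The numbers of falls and rises called among the members depended on the scaling of the arrays, while no called member changed sign. When each array was scaled by its median in place of quantile normalisation, 1 member fell and 4 rose, against 9.33% and 15.3% of all genes. With the replicate number as a block, 13 members were lower and 9 higher, against 32.8% and 32.5% of all genes, so that 22 of the 44 passed.

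**Figure D1:**
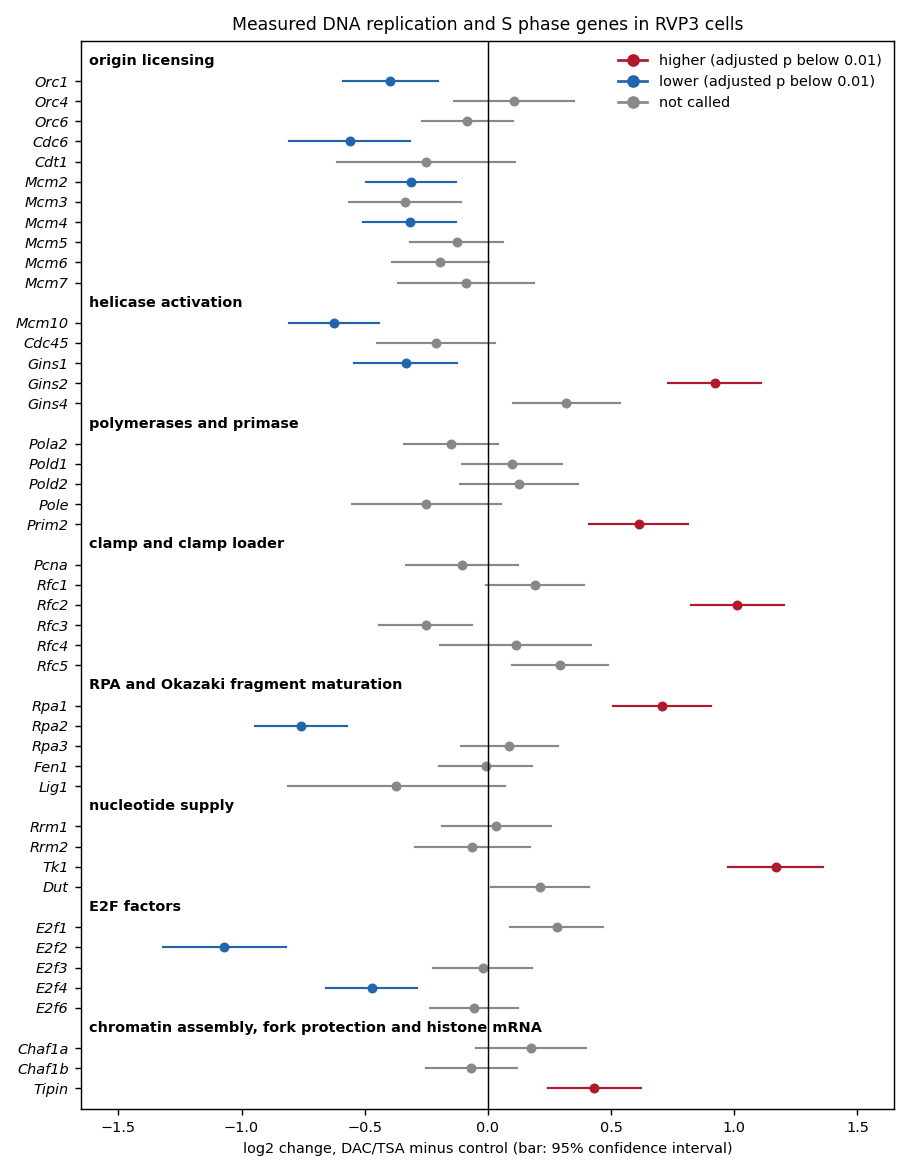
Log2 change of the 44 measured replication and S phase genes in RVP3 cells, DAC/TSA minus control, by role, with the 95% confidence interval of the limma fit as a bar (3 arrays per group). The 9 genes in blue were lower and the 6 in red higher at an adjusted p below 0.01, and the 29 in grey lie between -0.37 and 0.32.

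**Figure D2:**
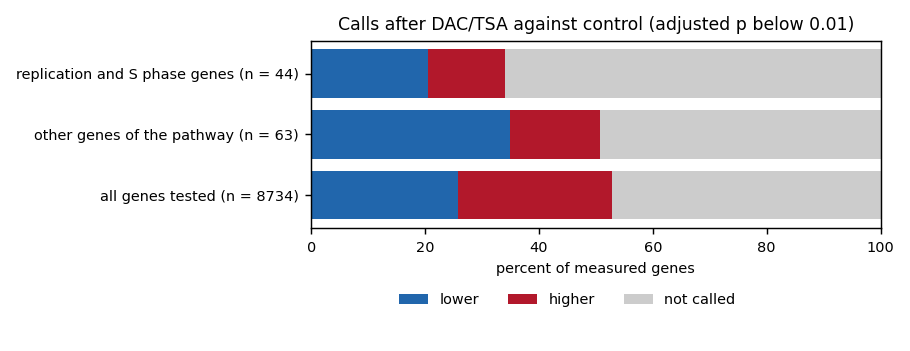
Share of measured genes called lower, called higher or not called after DAC/TSA, in percent, for the 44 replication and S phase genes, 63 other genes of the pathway and all 8734 genes tested. The uncalled share is widest for the 44 genes, of which 20.5% were lower and 13.6% higher.

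For the 29 members that did not pass the test, the log2 changes lay between -0.37 and 0.32, and the 95% confidence intervals of all 29 lay between -0.81 and 0.54, so that a 2-fold change in probe signal was outside each interval. For Pcna and Orc4, whose probes were near background, the interval bounds the signal of the probe and not the change of the gene. Of the 29, 5 (Mcm3, Gins4, Rfc3, Rfc5 and E2f1) had an adjusted p below 0.05 in limma, and missing the threshold does not show that a gene was unchanged.

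Between 14101 and 15056 probes were detected on the DAC/TSA arrays and between 13227 and 14261 on the control arrays, and Pearson's r of the log2 signals over probes was at least 0.992 between arrays of a group and at least 0.944 between arrays of different groups. All 6 arrays detected 42 of the 44 members, the exceptions being Orc1 and Pcna. The epithelial keratins Krt8, Krt18 and Krt14 and the mesenchymal markers Vim, Fn1, Sparc and Lgals1 were all detected on every control array. Of 12 leukocyte markers 6 were measured, 4 of which rose (Cd52, Laptm5, Lyz1 and Lyz2, all undetected on the control arrays) and 1 fell (Cd79b), and their summed normalised signal was 493 to 498 on the DAC/TSA arrays and 277 to 308 on the control arrays. Ptprc, Tyrobp, Cd68, Cd3e and Itgam, which define leukocytes, were among those not analysed here. Of 8 endothelial markers 3 were measured, of which Egfl7 rose 9.47-fold, Esam fell 1.61-fold and Kdr had a change of -0.05 and did not pass. Their summed signal was 1710 to 1956 on the DAC/TSA arrays and 397 to 442 on the control arrays. The 3 keratins summed to 2445 to 3071 on the DAC/TSA arrays and 2227 to 2952 on the control arrays, which overlap. Krt14 rose 5.55-fold, while Krt8 (-0.16) and Krt18 (-0.34) did not pass. The 5 measured of 10 mesenchymal markers summed to 11798 to 13131 on the DAC/TSA arrays and 7210 to 8427 on the control arrays. Fn1 rose 4.80-fold and Lgals1 1.48-fold, while Vim, Sparc and S100a4 did not pass. All 6 cultures were of the same line. Whether other cells were present, or had a part in the results on replication genes, was not tested.

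Licensing genes fell or did not pass the test, and none rose. Of 11 measured members of this step, 4 fell (36.4%: Cdc6, Orc1, Mcm4 and Mcm2), against 25.8 percent of all genes, and none rose, against 27.0 percent. Changes were below 0 for 10 of the 11, against 4514 of all 8734 genes. The median change was -0.25, with a range from -0.56 to 0.11. Cdc6, the ATPase that brings the helicase to ORC, had log2 signals of 7.64, 7.65 and 7.92 on the DAC/TSA arrays, against 8.13, 8.27 and 8.48 on the control arrays. Every DAC/TSA array was below every control array, and replicate 3 was the highest in both groups. Cdc6 fell 1.47-fold (log2 change -0.56 ± 0.11 SE, limma adjusted p = 0.000979), and its dimmer probe had a change of -0.29 (adjusted p = 0.0203). Orc1, the ATPase subunit of ORC that comes and goes with the cell cycle, gave log2 signals of 5.50, 5.51 and 5.64 on the DAC/TSA arrays and 5.99, 5.86 and 5.98 on the control arrays. Orc1 was not detected above background on any DAC/TSA array and was detected on all 3 control arrays. It was therefore at least 1.18-fold lower, taking as floor, on each DAC/TSA array, the higher of its own signal and the lowest signal of a detected probe. Its measured log2 change was -0.40 ± 0.09 SE (limma adjusted p = 0.00206), which missed the threshold without control replicate 1 (adjusted p = 0.0108) or without DAC/TSA replicate 2 (adjusted p = 0.0121). The subunits Orc4 and Orc6 had changes of 0.11 and -0.08 and did not pass. The Orc4 probe was detected on every array but was dim, with a mean log2 signal of 5.91, against 5.75 for Orc1. With median scaling none of the 4 calls held, with log2 changes of -0.51 for Cdc6 (limma adjusted p = 0.144), -0.36 for Orc1 (0.0643), -0.29 for Mcm4 (0.149) and -0.29 for Mcm2 (0.177).

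The 6 subunits of the MCM2-7 ring all had changes below 0, as had 4514 of all 8734 genes. The changes were small, between -0.34 and -0.09 with a median of -0.25. Of the 6 subunits, 2 fell (33.3%), against 25.8 percent of all genes. Mcm4 had log2 signals of 12.44, 12.36 and 12.31 on the DAC/TSA arrays, against 12.73, 12.71 and 12.62 on the control arrays. The groups did not overlap, and Mcm4 fell 1.25-fold (log2 change -0.32 ± 0.09 SE, limma adjusted p = 0.00702). Mcm2 had log2 signals of 10.38, 10.30 and 10.34 on the DAC/TSA arrays, against 10.70, 10.66 and 10.59 on the control arrays. It fell 1.24-fold (log2 change -0.31 ± 0.08 SE, limma adjusted p = 0.00664), again with no overlap. With any 1 array left out, the log2 change stayed between -0.34 and -0.29 for Mcm2 and between -0.37 and -0.29 for Mcm4. Both calls lay near the threshold, and each was lost when some single arrays were left out. That of Mcm2 was lost without any 1 of the arrays other than control replicate 3, with limma adjusted p between 0.0125 and 0.0324. That of Mcm4 was lost without control replicate 1 (adjusted p = 0.0376) or 2 (0.0345) and without DAC/TSA replicate 2 (0.0242) or 3 (0.0167) in limma.

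Mcm3 had the largest change of the ring, -0.34 ± 0.10 SE, from log2 signals of 9.01, 8.63 and 8.74 on the DAC/TSA arrays and 9.15, 9.15 and 9.10 on the control arrays. DAC/TSA replicate 1 stood nearest the control arrays. With an adjusted p of 0.0146 in limma Mcm3 missed the threshold, and it passed without that array (log2 change -0.44, adjusted p = 0.00290) and in a fit with the replicate number as a block (adjusted p = 0.0020). With any 1 array left out, the change of Mcm3 lay between -0.44 and -0.26, with limma adjusted p up to 0.0784. Mcm6 and Mcm5 had changes of -0.19 (limma adjusted p = 0.0847) and -0.13 (adjusted p = 0.235). Mcm7 had log2 signals of 8.31, 8.28 and 7.79 on the DAC/TSA arrays and 8.23, 8.25 and 8.17 on the control arrays, with DAC/TSA replicate 3 well below the other arrays. Its change of -0.09 became 0.08 without that array, so that 5 of the 6 subunits were then below 0. A second probe of Mcm7, nearly as bright, had a change of -0.42 with all DAC/TSA arrays lower (limma adjusted p = 0.0204), and the mean of both probes had a change of -0.25 (adjusted p = 0.0223). Cdt1, the partner of Cdc6 in loading, spread widely in both groups, with log2 signals of 10.36, 10.69 and 11.10 on the DAC/TSA arrays and 10.89, 10.79 and 11.22 on the control arrays. Its change of -0.25 ± 0.17 SE did not pass (limma adjusted p = 0.214), and without DAC/TSA replicate 3 it was -0.45 (adjusted p = 0.00788). With any 1 array left out, the change of Cdt1 lay between -0.45 and -0.07, with limma adjusted p up to 0.719.

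**Figure D3:**
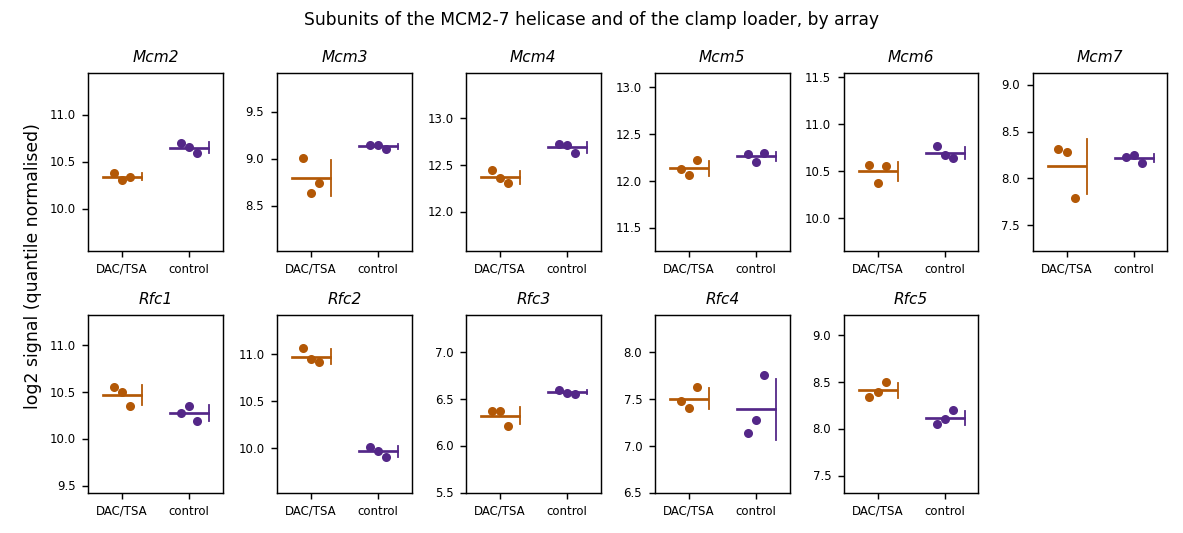
Quantile-normalised log2 signal on each array for the 6 subunits of the MCM2-7 helicase (upper row) and the 5 subunits of the clamp loader (lower row), DAC/TSA left of control. Points are arrays in the order of replicates 1, 2 and 3, horizontal lines are means and vertical bars SD (n = 3); the means of all 6 Mcm genes were lower after DAC/TSA, by 0.09 to 0.34, and that of Rfc2 was higher by 1.01.

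Genes that activate the loaded helicase moved in opposite directions, also inside 1 complex. Mcm10, a scaffold that helps start unwinding, had log2 signals of 9.66, 9.70 and 9.73 on the DAC/TSA arrays and 10.31, 10.28 and 10.38 on the control arrays. These values were tight and far apart, and Mcm10 fell 1.54-fold (log2 change -0.62 ± 0.08 SE, limma adjusted p = 4.14e-05). Its second probe had a change of -0.66, and another, dim and undetected on the control arrays, had a change of 0.10. Of the GINS subunits, Gins2 rose 1.89-fold, with log2 signals of 8.75, 8.81 and 8.90 on the DAC/TSA arrays and 7.90, 7.95 and 7.86 on the control arrays. The gap between the groups was several times the spread within them (log2 change 0.92 ± 0.09 SE, limma adjusted p = 1.96e-06), and its other probes had changes of 1.12 and 0.98. Gins1 had log2 signals of 8.92, 8.84 and 9.04 on the DAC/TSA arrays and 9.31, 9.36 and 9.14 on the control arrays. Gins1 fell 1.26-fold (log2 change -0.33 ± 0.10 SE, limma adjusted p = 0.00946). That call was lost without control replicate 1 (adjusted p = 0.0386) or 2 (0.0475) and without DAC/TSA replicate 1 (0.0294) or 2 (0.0492) in limma. Gins4 had a change of 0.32 ± 0.10 SE and missed the threshold (limma adjusted p = 0.0153), which it passed without DAC/TSA replicate 3 (adjusted p = 0.00505) and with the replicate block (adjusted p = 0.00124). With any 1 array left out, the change of Gins4 lay between 0.25 and 0.39, with limma adjusted p up to 0.0656. With median scaling Mcm10 (log2 change -0.62, limma adjusted p = 0.0257) and Gins1 (-0.31, 0.199) missed the threshold. Cdc45, which bridges GINS and the ring, had a change of -0.21 (limma adjusted p = 0.121). The difference in change between subunits was not tested here or in the complexes that follow.

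Among the polymerases and primase, 1 of 5 measured genes rose (20%), against 27.0 percent of all genes, and none fell, against 25.8 percent. Prim2, the larger primase subunit, had log2 signals of 8.67, 8.41 and 8.54 on the DAC/TSA arrays, against 7.98, 7.89 and 7.91 on the control arrays. All DAC/TSA arrays were higher, and Prim2 rose 1.53-fold (log2 change 0.61 ± 0.09 SE, limma adjusted p = 0.000117), while its dimmer probe had a change of 0.27 (adjusted p = 0.0276). With median scaling Prim2 missed the threshold (limma adjusted p = 0.0202). The other measured polymerase genes did not pass. Pola2, of polymerase alpha, had a change of -0.15, and Pold1 and Pold2, catalytic and accessory subunits of polymerase delta, had changes of 0.10 and 0.13. Pole, the catalytic subunit of the leading-strand polymerase epsilon, had log2 signals of 6.96, 6.97 and 7.48 on the DAC/TSA arrays and 7.27, 7.30 and 7.58 on the control arrays. Replicate 3 was the highest in both groups. Its change of -0.25 ± 0.14 SE (limma adjusted p = 0.142) became -0.42 without DAC/TSA replicate 3 (adjusted p = 0.00363), and it passed with the replicate block (adjusted p = 0.00950). With any 1 array left out, the change of Pole lay between -0.42 and -0.15, with limma adjusted p up to 0.395.

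Of the clamp and its loader, 1 of 6 genes rose (16.7%), against 27.0 percent of all genes, and none fell, against 25.8 percent. Rfc2, a small ATPase subunit of the loader, had log2 signals of 11.06, 10.95 and 10.92 on the DAC/TSA arrays and 10.02, 9.97 and 9.91 on the control arrays. It rose 2.02-fold (log2 change 1.01 ± 0.09 SE, limma adjusted p = 9.91e-07), and its other 3 probes had changes of 0.75, 0.73 and 0.84, so all 4 probes pointed the same way. The other loader subunits did not pass. Rfc5 had a change of 0.29 (limma adjusted p = 0.0133), Rfc1 one of 0.19 (0.0942), Rfc4 one of 0.11 (0.515) and Rfc3 one of -0.25 (0.0253). With the replicate block Rfc5 (adjusted p = 0.00207) and Rfc3 (adjusted p = 0.00701) passed in limma, in opposite directions. Pcna, the clamp itself, could not be read well with its probe, which gave log2 signals of 5.57, 5.88 and 5.84 on the DAC/TSA arrays and 5.75, 5.94 and 5.92 on the control arrays. The probe was detected on 2 arrays of each group, near background, and its change of -0.11 ± 0.10 SE did not pass (limma adjusted p = 0.410).

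Replication protein A (RPA), the trimer that coats single-stranded DNA, split more widely than any other measured complex of the list. Rpa1, its large subunit, had log2 signals of 12.95, 12.89 and 12.76 on the DAC/TSA arrays, against 12.19, 12.22 and 12.06 on the control arrays. Rpa1 rose 1.63-fold (log2 change 0.71 ± 0.09 SE, limma adjusted p = 2.92e-05). Rpa2, the middle subunit, had log2 signals of 7.96, 7.90 and 7.92 on the DAC/TSA arrays, against 8.66, 8.62 and 8.78 on the control arrays, and fell 1.69-fold (log2 change -0.76 ± 0.09 SE, limma adjusted p = 9.93e-06). Neither gene's groups overlapped, and with median scaling the call of Rpa2 was lost (limma adjusted p = 0.0167). Rpa3, the small subunit, had a change of 0.09 (limma adjusted p = 0.438). Of the enzymes that join Okazaki fragments, the flap nuclease Fen1 had a change of -0.01 (limma adjusted p = 0.933). The ligase Lig1 had log2 signals of 8.83, 8.94 and 9.71 on the DAC/TSA arrays and 9.27, 9.47 and 9.86 on the control arrays. Replicate 3 stood high in both groups and the groups overlapped. Its change of -0.37 ± 0.20 SE did not pass (limma adjusted p = 0.136), and it was -0.65 without DAC/TSA replicate 3 (adjusted p = 0.000657). With any 1 array left out, the change of Lig1 lay between -0.65 and -0.21, with limma adjusted p up to 0.428. With the replicate block Lig1 passed (adjusted p = 0.00105). A dimmer probe of Lig1 had a change of -0.34 with all DAC/TSA arrays lower (limma adjusted p = 0.0187), and its dimmest probe one of -0.15 (0.388).

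Of 4 measured nucleotide supply genes, 1 rose (25%), against 27.0 percent of all genes, and none fell, against 25.8 percent. The gene that rose belongs to the salvage pathway. Tk1, thymidine kinase, which recycles thymidine in S phase, had log2 signals of 9.35, 9.35 and 9.48 on the DAC/TSA arrays and 8.30, 8.14 and 8.24 on the control arrays. This was the highest rise of the 44 members, 2.25-fold (log2 change 1.17 ± 0.09 SE, limma adjusted p = 3.63e-07). A dim second probe of Tk1, detected on 1 control array, had a change of 0.17 (limma adjusted p = 0.166). Ribonucleotide reductase, which makes deoxyribonucleotides from ribonucleotides, did not pass the test with either subunit. Rrm1, its large subunit, had log2 signals of 9.98, 10.01 and 9.82 on the DAC/TSA arrays and 10.07, 9.86 and 9.77 on the control arrays (change 0.03 ± 0.10 SE, 95% confidence interval -0.19 to 0.26, limma adjusted p = 0.789). Rrm2, the small subunit whose level limits the enzyme, had log2 signals of 9.36, 9.08 and 9.005 on the DAC/TSA arrays and 9.32, 9.12 and 9.19 on the control arrays (change -0.06 ± 0.11 SE, 95% confidence interval -0.30 to 0.17, limma adjusted p = 0.644). The arrays of the groups overlapped for both subunits at these probes. A second probe of Rrm2, nearly as bright, had a change of 0.16 with all DAC/TSA arrays higher (limma adjusted p = 0.143). The mean of the Rrm2 probes had a change of 0.05 (limma adjusted p = 0.651). The other probe of Rrm1 had a change of -0.06 (limma adjusted p = 0.667). Dut, which keeps uracil out of DNA, had a change of 0.21 (limma adjusted p = 0.0651).

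The E2F factors split between falls and no call. E2f2, an activator of S phase genes, had log2 signals of 7.97, 8.09 and 7.78 on the DAC/TSA arrays, against 9.19, 9.03 and 8.81 on the control arrays. It had the largest fall of all members, 2.10-fold (log2 change -1.07 ± 0.11 SE, limma adjusted p = 6.26e-06), and its other probe had a change of -1.08. E2f4, which represses S phase genes in resting cells, had log2 signals of 7.61, 7.75 and 7.69 on the DAC/TSA arrays and 8.17, 8.15 and 8.14 on the control arrays. It fell 1.39-fold (log2 change -0.47 ± 0.08 SE, limma adjusted p = 0.000411), a call lost with median scaling (adjusted p = 0.0859). E2f1, the best known activator, had log2 signals of 11.27, 11.27 and 11.32 on the DAC/TSA arrays and 10.96, 11.11 and 10.95 on the control arrays. All its DAC/TSA arrays were higher, yet its change of 0.28 ± 0.09 SE missed the threshold (limma adjusted p = 0.0154). E2f1, read by 1 probe, passed with the replicate block (adjusted p = 0.00420). E2f3, the remaining activator, had log2 signals of 8.68, 8.46 and 8.61 on the DAC/TSA arrays and 8.68, 8.54 and 8.58 on the control arrays, a change of -0.02 (limma adjusted p = 0.864). E2f6, a repressor, had log2 signals of 10.15, 10.09 and 10.10 on the DAC/TSA arrays and 10.16, 10.15 and 10.19 on the control arrays. Its change was -0.06 (limma adjusted p = 0.594), and none of its 6 probes passed.

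At the fork, Tipin, a partner of Timeless in protecting stalled forks, rose 1.35-fold, with log2 signals of 10.81, 10.84 and 10.70 on the DAC/TSA arrays and 10.30, 10.35 and 10.40 on the control arrays. The groups did not overlap (log2 change 0.43 ± 0.09 SE, limma adjusted p = 0.000969). A dimmer probe of Tipin had a change of -0.05 (limma adjusted p = 0.725), and the call was lost with the mean of the 2 probes and with median scaling (adjusted p = 0.0522). Chaf1a and Chaf1b, subunits of the chromatin assembly factor that lays histones on new DNA, had changes of 0.18 and -0.07 (limma adjusted p = 0.161 and 0.523).

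**Figure D4:**
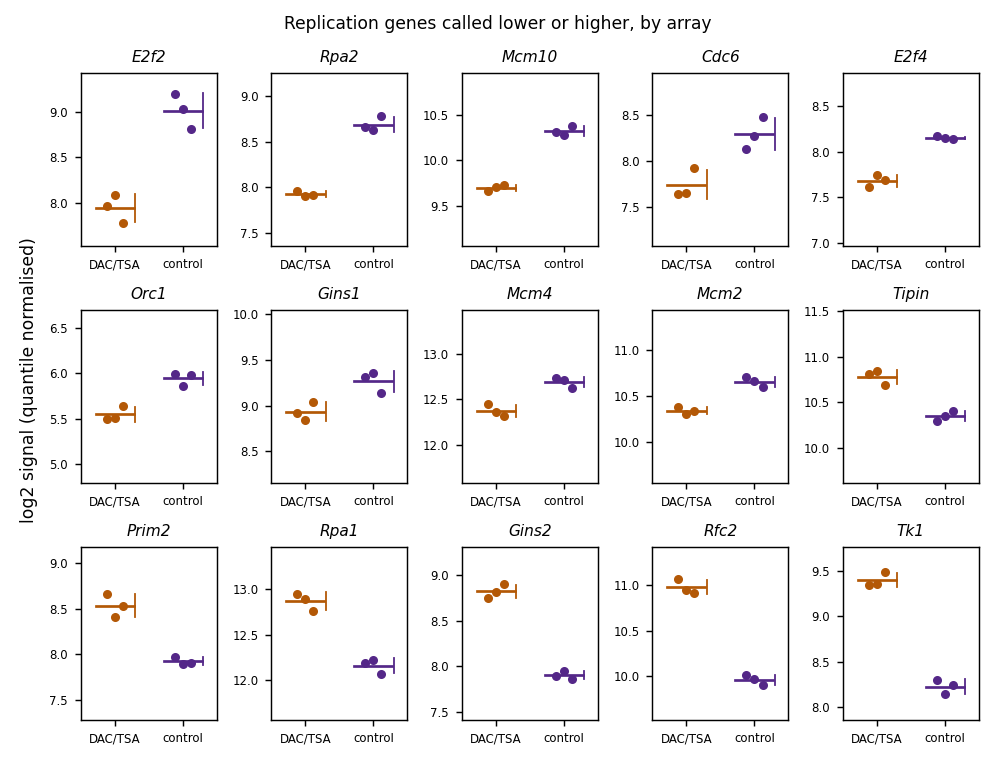
Quantile-normalised log2 signal on each array for the 15 replication genes called lower or higher, DAC/TSA left of control, ordered by log2 change, with E2f2 at -1.07 first and Tk1 at 1.17 last. Points are arrays in the order of replicates 1, 2 and 3, horizontal lines are means and vertical bars SD (n = 3), and in no panel do the arrays of the groups overlap.

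Of all genes, 25.8 percent were lower and 27.0 percent higher, against which the small counts by role are to be read. Licensing had 4 of 11 genes lower and none higher, against 2 lower and 1 higher of 5 for helicase activation, 0 and 1 of 5 for polymerases and primase, 0 and 1 of 6 for the clamp and its loader, 1 and 1 of 5 for RPA and Okazaki fragments, 0 and 1 of 4 for nucleotide supply, 2 and 0 of 5 for the E2F factors, and 0 and 1 of 3 for chromatin assembly and fork protection. The median log2 changes were -0.25 for licensing, -0.21 for helicase activation and -0.06 for the E2F factors. They were 0.10 for polymerases and primase, 0.15 for the clamp and its loader, 0.12 for nucleotide supply, 0.18 for chromatin assembly and fork protection and -0.01 for RPA and Okazaki fragments. These are counts and medians of 3 to 11 genes measured on the same arrays, and no difference between roles was tested.

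The wider pathway was read from a list of 80 further genes of replication, of which 63 were measured. Of these, 22 fell (34.9%) and 10 rose (15.9%) by the same limma test, against 25.8 percent and 27.0 percent of all genes, with a median log2 change of -0.20. With median scaling 8 fell and 4 rose, against 9.33% and 15.3% of all genes.

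Of 10 measured genes of a mixed list of other origin and helicase genes, 5 fell (50%: Recql4, Mtbp, Dbf4, Topbp1 and Orc5), against 25.8 percent of all genes. None rose, against 27.0 percent of all genes, and the median log2 change was -0.31. Recql4, a helicase of the RecQ family needed to assemble the active helicase, fell 2.67-fold (log2 change -1.42 ± 0.09 SE, limma adjusted p = 7.22e-08). Mtbp, a partner of the firing factor Treslin, fell 2.37-fold (-1.24 ± 0.11 SE, adjusted p = 1.55e-06 in limma). Dbf4, the activating subunit of the Cdc7 kinase, fell 2.26-fold (-1.18 ± 0.09 SE, adjusted p = 5.14e-07 in limma), while Cdc7 itself had a change of 0.12 and did not pass. Topbp1 fell 2.02-fold (-1.02 ± 0.10 SE, adjusted p = 3.54e-06 in limma). Orc5, a subunit of ORC, had a change of -0.36 (limma adjusted p = 0.00652), a call lost with median scaling (adjusted p = 0.0965), with the mean of its probes (0.0104) and without control replicate 1 (0.0324) or 2 (0.0369) or DAC/TSA replicate 1 (0.0212) or 2 (0.0200).

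Of 15 other polymerase, clamp and maturation genes, 5 fell (33.3%) and 4 rose (26.7%), against 25.8 percent and 27.0 percent of all genes. Pold4, the smallest subunit of polymerase delta, rose 2.41-fold (log2 change 1.27 ± 0.10 SE, limma adjusted p = 3.99e-07), and Pold3, another subunit of the same enzyme, fell 1.58-fold (-0.66 ± 0.09 SE). Pole3, a histone-fold subunit of polymerase epsilon, and Chtf18, of the alternative clamp loader, each rose 1.66-fold. Atad5, which unloads the clamp, fell 1.46-fold and Top2a, the topoisomerase that untangles copied DNA, fell 1.39-fold. Of 14 other nucleotide supply genes, 3 fell (21.4%) and 4 rose (28.6%), against the same shares of all genes. Tyms, which makes thymidylate anew, fell 1.52-fold, Cad, which starts pyrimidine synthesis, fell 1.36-fold, and Ctps, which makes CTP, fell 1.29-fold. The nucleoside diphosphate kinase Nme1 rose 1.56-fold, Rrm2b, the p53-induced small subunit of ribonucleotide reductase, rose 1.48-fold, and the mitochondrial salvage kinase Dguok rose 1.34-fold. So Tyms fell where Tk1, the salvage enzyme for the same nucleotide, rose. The calls of Ctps and Dguok were each lost without any of 3 arrays (limma adjusted p of 0.0192, 0.0191 and 0.0205 without control replicates 1 and 2 and DAC/TSA replicate 2 for Ctps, and of 0.0154, 0.0236 and 0.0165 without control replicate 3 and DAC/TSA replicates 1 and 2 for Dguok). That of Cad was lost without control replicate 1 (adjusted p = 0.0119). With median scaling Pold3, Atad5, Top2a, Tyms, Cad, Ctps, Nme1, Rrm2b and Dguok missed the threshold, with limma adjusted p from 0.0154 to 0.113.

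Around E2F, 4 of 11 measured genes fell (36.4%) and 1 rose (9.09%), against 25.8 percent and 27.0 percent of all genes. Tfdp2, a dimerisation partner of E2F proteins, fell 2.13-fold (log2 change -1.09 ± 0.09 SE, limma adjusted p = 5.04e-07), Cdc25a, the phosphatase that activates Cdk2, fell 1.80-fold and Cdk2 fell 1.64-fold. Rb1, the retinoblastoma protein that holds activator E2Fs in check, rose 1.93-fold (0.95 ± 0.12 SE, limma adjusted p = 2.08e-05). Of 13 fork and chromatin assembly genes, 5 fell (38.5%) and 1 rose (7.69%), against the same shares of all genes. The histone chaperone Nasp fell 1.47-fold, the ubiquitin ligase scaffold Cul4a fell 1.44-fold and Clspn, a mediator of the replication checkpoint, fell 1.32-fold, while the histone chaperone Asf1b rose 1.44-fold. The calls of Cul4a and Clspn were each lost when some single arrays were left out. Both missed the threshold without control replicate 1 (limma adjusted p = 0.0158 and 0.0291), and Cul4a also without control replicate 2 (0.0123). Clspn also missed it without DAC/TSA replicate 2 (0.0163) or 3 (0.0112). Both calls were also lost with the mean of the gene's probes. The log2 change was then -0.34 for Cul4a (limma adjusted p = 0.0196) and -0.29 for Clspn (0.0167). With median scaling Cdk2, Nasp, Clspn and Asf1b missed the threshold, with limma adjusted p from 0.0117 to 0.0754.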

How the data were processed

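The authors deposited linear intensity and a detection p-value of 45281 probes on each of the 6 arrays, extracted with BeadStudio, and a shorter table with the log2 values of 15131 probes. Per the study's methods these were quantile normalised, log2 transformed and tested with limma, which the submitters' processing notes also name (version not given there). Here the intensities were quantile normalised on the log2 scale over all probes, which matched the deposited log2 values to within 4.97e-14. Probes detected at a p of 0.01 or less on at least 1 array were kept (16760). Each probe was tested two-sided in limma 3.58.1 (lmFit, eBayes) under R 4.3.3, with no covariate and Benjamini-Hochberg adjustment over the 16760 probes. A gene was called at an adjusted p below 0.01, and its probe of highest mean log2 signal stood for it. Errors are standard errors (SE) of that fit. Files were read with data.table (version 1.17.8), promoters with Python 3.11.15 and figures drawn with matplotlib 3.10.9. The test was tried on simulated arrays first.

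Gene names came from the platform annotation, in which 13126 probes had 1 symbol, updated through Entrez identifiers to RefSeq on GRCm38.p6, so only probes of the shorter table have names. Groups and replicate numbers came from the sample labels. All columns of per-sample values were used (0 unused), and neither slide nor scan is given in the sources used here, so no batch could be tested. Each group had 3 arrays, which limits the precision. Median signal was 42.6 to 45.9 intensity units on the DAC/TSA arrays and 40.0 to 42.9 on the control arrays.

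The members and the lists were chosen with earlier results of these data known, so no p is given for a list. Values by array are given for up to 4 called members in each direction in a role, and for every E2F factor, Pcna, Rrm1 and Rrm2. From each list of other genes, up to 3 called genes in each direction with the largest change are named. Values of further members, Cdc7, Topbp1 and Orc5 were added after they were seen. Promoter stretches were planned for up to 2 largest falls and 2 largest rises among called members with an E2F match upstream of the start. Of the members that rose, only Tk1 and Rpa1 had a promoter window to search, and neither had an E2F match. Gins2, Prim2, Rfc2 and Tipin had no window and were not searched.

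Same-numbered arrays were checked for pairing. Over probes, the deviations from the group mean of DAC/TSA and control replicate 1 had a correlation of 0.34, those of replicate 2 of 0.24 and those of replicate 3 of 0.65, all above 0.1, and so a fit with the replicate number as a block was run beside the fit without it. DAC/TSA replicate 1 also correlated with control replicate 2, at 0.37, and DAC/TSA replicate 2 with control replicate 1, at 0.22. The labels do not say what a shared number marks. Alternatives tried were median scaling, background correction (neqc, offset 16), filters on dim probes, the deposited log2 values as given, the mean of a gene's probes, other thresholds, the replicate block and leaving out each array.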

Additional observations from a re-analysis of the deposited data

How the results depend on the processing

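Of 16 alternatives (10 choices of processing and 6 arrays left out in turn), none reversed the direction of a called member. The 5 calls of E2f2, Tk1, Rfc2, Gins2 and Rpa1 held under every alternative other than a 2-fold minimum, at which E2f2, Tk1 and Rfc2 alone stayed, and Mcm10, Cdc6, Rpa2, E2f4 and Prim2 were lost besides only under median scaling. Median scaling gave 1 lower and 4 higher members with a median log2 change of -0.035, and 8 lower and 4 higher other replication genes, and of all genes called 62.1% were then higher, against 51.1% with quantile normalisation, while the median of all genes' changes was 0.02 in place of -0.02. The cause was not tested. A 2-fold minimum gave 1 lower and 2 higher members, and 5 lower and 1 higher other genes. At an adjusted p below 0.05 in limma, 11 members were lower and 9 higher (32.6% and 32.4% of all genes), with 30 and 14 of the other genes. Background correction with neqc gave 6 lower and 6 higher members (Mcm2, Mcm4 and Gins1 lost), against 23.9% and 25.5% of all genes. It gave 18 lower and 8 higher other genes. The 3 choices of filter and the deposited values as given left the members at 9 lower and 6 higher, with Pcna dropped by the filter that asks for detection on all arrays of a group. With the mean of a gene's probes Mcm4 and Tipin lost their calls, Rfc5 (limma adjusted p = 0.00904) and E2f1 (0.00991), each with 1 probe and the same change, passed, Orc5, Cul4a and Clspn lost theirs, and 2 other genes reversed, Mcmbp at -0.49 in place of 0.07 (limma adjusted p = 0.000806) and Umps at -0.22 in place of 0.33 (adjusted p = 0.0655).

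In the fit with a replicate block, 13 members were lower and 9 higher (32.8% and 32.5% of all genes), and 29 and 14 of the other genes. The pairing added Mcm3, Gins4, Pole, Rfc3, Rfc5, Lig1 and E2f1 and changed no other call of a member. Leaving out 1 array gave 5 to 10 lower members, the lowest count without control replicate 1 and without DAC/TSA replicate 2, and 6 to 7 higher, with a median between -0.07 and -0.04. Other genes then came to 15 to 23 lower and 7 to 12 higher. Of all genes, 21.1% to 26.7% were lower and 22.9% to 27.4% higher in these fits. Signal near background limits Orc1, Orc4 and Pcna. With neqc the log2 change of Orc1 was -0.69 in place of -0.40. The dim probes of Rfc3 and Dut then had changes of -0.35 and 0.31, in place of -0.25 and 0.21.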
